A study of Saccharomyces cerevisiae with 4 samples.

Results

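The 66 genes described here encode proteins of the mitochondrial ribosome of the budding yeast Saccharomyces cerevisiae. They are the genes in the count files whose R64 standard name is MRPL, MRPS or RSM with a number, or MRP with a number apart from MRP8, which is not a ribosomal protein. They make up 66 of the 7126 features counted, 38 for the large subunit and 28 for the small subunit, and all 66 passed the filter on low counts. The subunit and the protein family come from the R64 gene table. A family name there begins with u for proteins shared by all ribosomes, b for those shared with bacteria and m for those of mitochondria. RSM22 has no family name there and was counted in the small subunit by its gene name alone.

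Poly(A)-selected RNA was sequenced as single 50-base reads from an xpo1-1 mex67-5 strain (mutant, n = 2 libraries) and a wild-type strain (n = 2 libraries). Both strains grew overnight at 25 °C and spent 1 h at 37 °C before harvest, so no library of either strain without the shift enters the comparison. The study asked how splicing differs between these strains, and the counts per gene were used here to compare message levels. CRM1 is the standard name of the XPO1 gene, whose product exports proteins and some RNAs from the nucleus, and Mex67 carries messenger RNA through the nuclear pore. The labels give no strain background, mating type or marker. Nor do they tell whether the libraries of a strain are separate cultures, and the p-values cover only the spread between libraries, which may be technical.

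The mitochondrial ribosome translates the few messages of the mitochondrial genome, nearly all of which encode subunits of the respiratory chain and of ATP synthase. Apart from Var1, its proteins are encoded in the nucleus, translated in the cytosol and imported. In yeast, Puf3, an RNA-binding protein of the Pumilio family, binds messages of many mitochondrial proteins, and of the mitochondrial ribosome in particular, at a short sequence in the 3′ untranslated region.

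Nearly all of the 66 genes held the Puf3 recognition sequence behind the stop codon. The letters TGTANATA occurred on the sense strand within 300 bases after the stop codon in 65 of the 66 genes (98.5%), against 972 of 6002 protein-coding genes of the nuclear genome (16.2%). RSM22, whose product resembles a methyltransferase and which has no ribosomal protein family name in the table, was the member without it. The site nearest to the stop was 8 to 139 bases after it, with a median of 51 bases, and 4 further sites, behind MRPL33, MRPL19, MRPL7 and MRPS12, were 165 to 266 bases after it. One site was found in 50 genes, 2 sites in 13 and 3 sites in 2. On the opposite strand of the same window 14 of the 66 genes (21.2%) held the letters, against 15.8% of all protein-coding genes, and in the 300 bases before the start codon 8 did (12.1%), against 8.0%. A match shows only that the letters are present, and binding was not measured.

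The sites below belong to members at both ends of the range of change and to 1 member that was not called. They are given 5′ to 3′ on the sense strand from build R64 as downloaded from RefSeq, with the 8 bases of the motif in capitals and up to 8 bases on each side.

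RSM25, small subunit, lower in the mutant, chrIX:187936-187959, minus strand: aaccaaccTGTATATAattaaaaa

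RSM27, small subunit, lower in the mutant, chrVII:922550-922573, plus strand: tcatttcaTGTACATAcaaaatca

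MRPL44, large subunit, lower in the mutant, chrXIII:720857-720880, minus strand: agcaagccTGTAAATAatatatat

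MRPL9, large subunit, lower in the mutant, chrVII:936026-936049, minus strand: tacaatcaTGTACATAcatcaata

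MRP20, large subunit, not called, chrIV:1278502-1278525, plus strand: ctcacactTGTATATAcggagcaa

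MRPL23, large subunit, higher in the mutant, chrXV:612538-612561, plus strand: tcaatccaTGTATATAtttatctg

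MRP10, small subunit, higher in the mutant, chrIV:372583-372606, plus strand: catggcctTGTATATAcaaattaa

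MRPL1, large subunit, higher in the mutant, second of 2 sites, chrIV:682622-682645, minus strand: taaaatcaTGTACATAcaaagtaa

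The same 8 letters stood behind genes that changed in opposite directions: TGTACATA follows RSM27 and MRPL9, which were low in the mutant, and MRPL1, which was high. Over all 82 sites, the open position was A in 36, T in 26, C in 18 and G in 2. A C stood 2 bases before the motif in 52 of the 82. All 8 sites printed above have that C, but they are a selection. The nearer site of MRPL1, not printed, has an A there. The median log2 change of the genes was -0.45 for those with TGTAAATA, -0.67 with TGTACATA and -0.38 with TGTATATA. Genes with different sites, such as MRPL1 with TGTATATA and TGTACATA, count in more than 1 of these groups. Each group included at least 1 gene with a change below -2 and at least 1 with a change above 0.4.

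**Figure D1:**
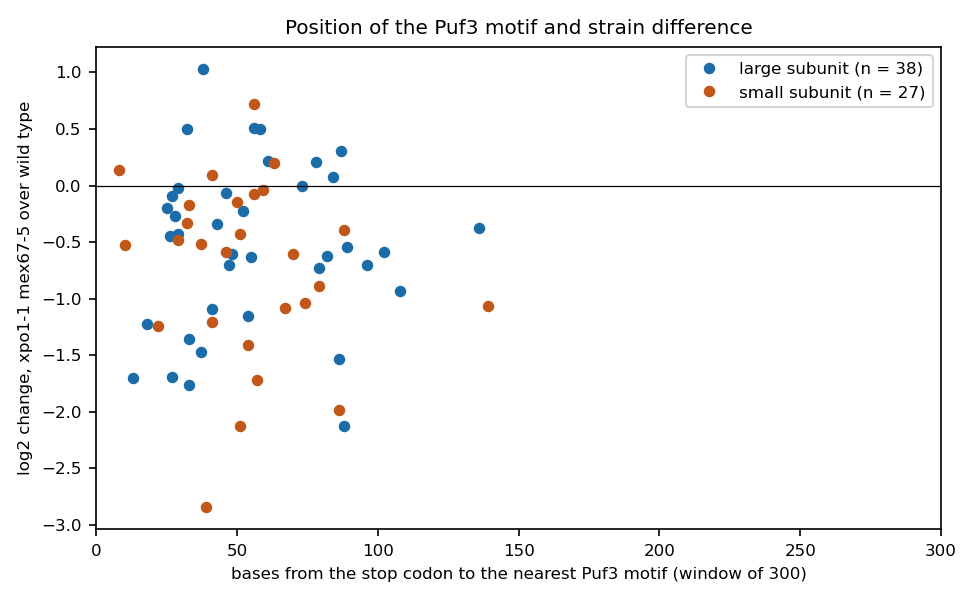
The x axis gives the distance in bases from the stop codon to the nearest TGTANATA of each of the 65 genes that hold it, and the y axis the log2 change, mutant over wild type. Points are genes, coloured by subunit, and none of the nearest sites lies beyond 139 bases of the 300 searched.

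Gene counts summed to 62205252 and 50843634 in the mutant libraries, against 49865570 and 49321384 in the wild type. Of 6563 genes tested, 93.1% were called different at an adjusted p under 0.05, 46.8% higher and 46.3% lower in the mutant, and the values of the 2 strains did not overlap in 96.4%. A call is therefore the usual outcome here, and sizes are given beside every call. Changes of at least 2-fold were called in 53.3% of genes. MEX67 was 12.5-fold higher in the mutant and CRM1 differed by a log2 change of -0.21, with edgeR quasi-likelihood adjusted p of 4.3e-21 and 1.4e-05. A mutated allele is still transcribed, so neither value checks the genotype.

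Most of the mitochondrial ribosomal protein genes were lower in the mutant, by a modest amount. Of the 66, 48 fell (72.7%, against 46.3% of all genes tested), 12 rose (18.2%, against 46.8%) and 6 were not called. The median log2 change was -0.52, which is 1.43-fold lower, with a median of 0.01 over all genes. The changes ran from -2.84 in RSM25 to 1.03 in MRPL1. A fall of at least 2-fold was called in 20 genes (30.3%, against 25.5% of all genes) and a rise of at least 2-fold in MRPL1 alone (1.5%, against 27.8%). The libraries of the strains overlapped in MRPL27, MRP20 and MRPS17 and did not in the other 63. Among all genes tested, 96.4% did not overlap. Counts are shares of a library, so less RNA of these genes per cell and more RNA of other genes cannot be told apart.

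Large-subunit and small-subunit genes had close median changes. Of the 38 large-subunit genes, 27 fell (71.1%), 7 rose (18.4%) and 4 were not called, and of the 28 small-subunit genes, 21 fell (75.0%), 5 rose (17.9%) and 2 were not called. The median log2 change was -0.49 in the large subunit and -0.52 in the small subunit. The difference of these medians, large minus small, was 0.03, and it was -0.002 without mutant replicate 1 and -0.02 without wild-type replicate 2, so that its sign rests on single libraries. Falls of at least 2-fold were called in 10 large-subunit genes (26.3%) and 10 small-subunit genes (35.7%), against 25.5% of all genes.

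**Figure D2:**
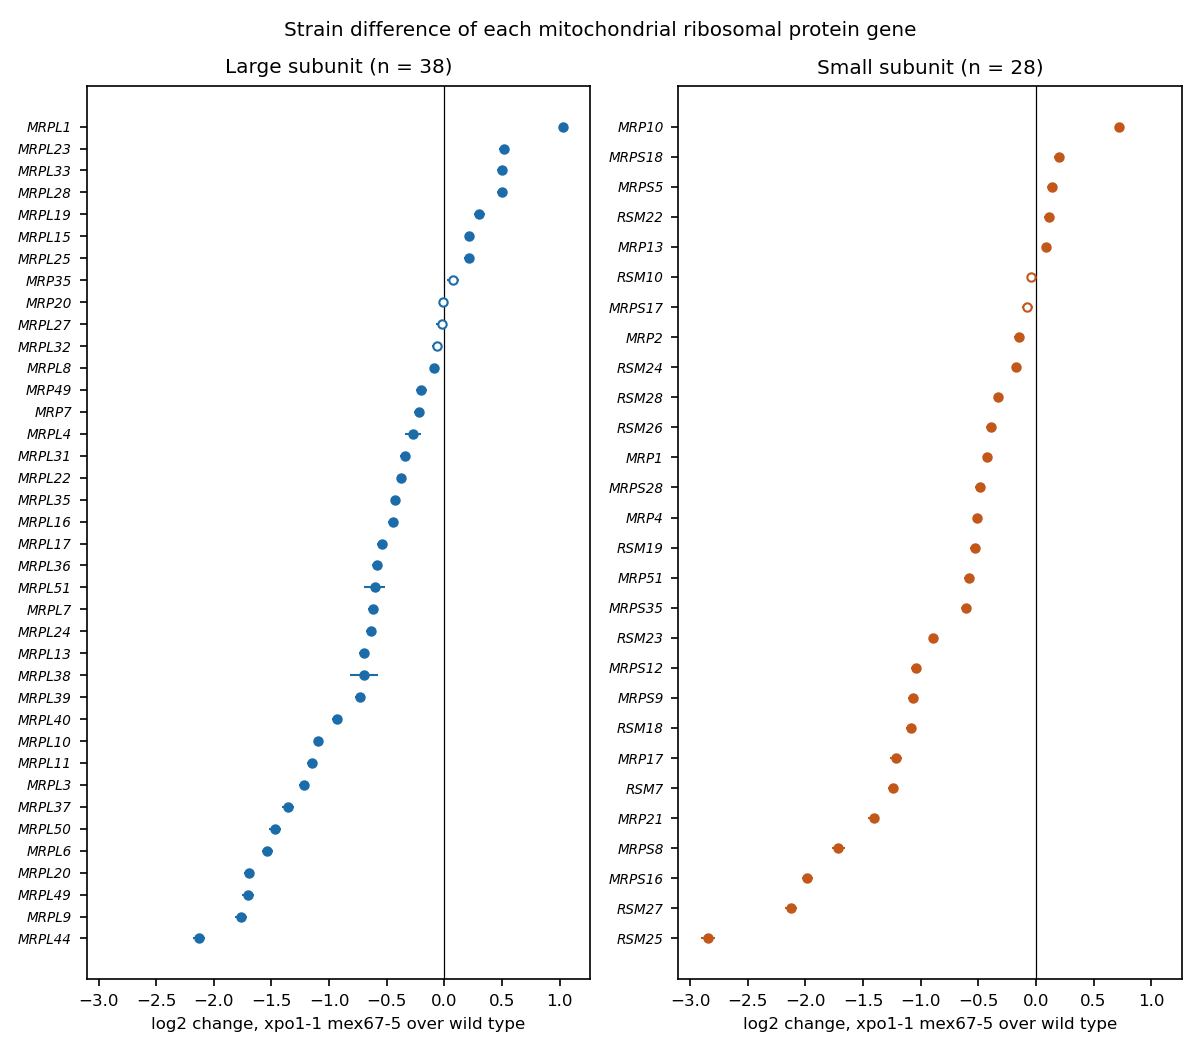
Each row is a gene, and the x axis gives its log2 change, mutant over wild type, with the standard error of the edgeR fit as a bar (n = 2 libraries per strain). Filled points passed an adjusted p under 0.05 and open points did not; the genes of both subunits spread over about the same range, with RSM25 lowest and MRPL1 highest.

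In the large subunit the 5 largest falls were in MRPL44, MRPL9, MRPL49, MRPL20 and MRPL6. MRPL44 (YMR225C, family mL53, chromosome XIII, 720960 to 721403), a protein without a bacterial counterpart, had 13.3 and 13.6 CPM (reads per 1000000 of the scaled library) in the mutant libraries, against 59.6 and 57.6 CPM in the wild type. It was 4.37-fold lower by the edgeR fit, and it is the member of the 66 with an intron record. That record held 0 reads in every library, as did all records of chromosome XIII, so its splicing was not measured here.

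MRPL9 (YGR220C, family uL3m, chromosome VII, 936074 to 936883), whose bacterial counterpart lies close to the peptidyl transferase centre, had 19.3 and 17.3 CPM in the mutant, against 60.7 and 63.6 CPM in the wild type. It fell 3.39-fold. Among RefSeq genes its nearest downstream neighbour, 278 bases away on the other strand, is CRM1, 1 of the 2 mutated genes. MRPL49 (family bL21m) had 22.7 and 20.2 CPM in the mutant, against 71.1 and 68.9 CPM in the wild type. MRPL20 (family mL58) had 29.7 and 30.3 CPM in the mutant, against 99.8 and 94.2 CPM in the wild type. MRPL6, of the uL6 family that lies near the site where elongation factors bind, had 24.4 and 22.5 CPM in the mutant, against 68.6 and 67.6 CPM in the wild type. In each of these 5 genes both wild-type libraries were above both mutant libraries, and 96.4% of all genes tested do not overlap either. The edgeR quasi-likelihood adjusted p was at most 2.5e-15.

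The other 5 falls of at least 2-fold in the large subunit ran from 2.13-fold in MRPL10 (family uL15m) to 2.76-fold in MRPL50 (family bL9m), with MRPL37, MRPL3 and MRPL11 between them. MRPL11, of the uL10 family that carries the stalk proteins, had 33.4 and 34.5 CPM in the mutant, against 73.0 and 77.7 CPM in the wild type. MRPL3, of family mL44, had 41.8 and 42.8 CPM in the mutant, against 96.8 and 100.3 CPM in the wild type. Both genes were lower in each mutant library than in either wild-type library, as is usual here, where 96.4% of all genes do not overlap.

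The rises of the large subunit were smaller than its falls. MRPL1 (YDR116C, chromosome IV, 682724 to 683581), of the uL1 family that forms the stalk over the exit site of transfer RNA, had 164 and 160.4 CPM in the mutant, against 80.6 and 77.9 CPM in the wild type. This was the only rise of at least 2-fold among the 66 (2.04-fold; edgeR quasi-likelihood adjusted p = 1.7e-14). MRPL23 (family uL13m) rose 1.43-fold, with 112 and 109 CPM in the mutant, against 77.1 and 77.9 CPM in the wild type. MRPL33 (family uL30m) had 82.5 and 76.1 CPM in the mutant, against 56.1 and 56.0 CPM in the wild type. MRPL28 (family mL40), without a bacterial counterpart, had 63.8 and 61.0 CPM in the mutant, against 44.7 and 43.8 CPM in the wild type. Neither rise passed 1.5-fold. MRPL19, of the uL11 family at the base of the stalk that recruits translation factors, rose 1.23-fold, with 55.2 and 56.9 CPM in the mutant, against 43.7 and 47.2 CPM in the wild type. MRPL19 shares 113 bases with YNL184C on the same strand, so reads of both may be mixed; YNL184C had a log2 change of 0.45. MRPL19 and MRPL11, whose bacterial counterparts are partners at the stalk base, thus differed between strains in opposite directions. The remaining rises were MRPL15 (family mL57, log2 0.22) and MRPL25 (family mL59, log2 0.21).

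Among the genes not called, MRP20 (family uL23m, at the exit of the tunnel for the nascent chain) had 96.9 and 100.05 CPM in the mutant, against 98.7 and 99.3 CPM in the wild type, with log2 -0.01 (SE 0.04). MRPL27 (family mL41) had 48.5 and 46.4 CPM in the mutant, against 48.8 and 47.8 CPM in the wild type, a log2 change of -0.02 (SE 0.04). The change was -0.06 in MRPL32 (family bL32m, SE 0.05) and 0.07 in MRP35 (family bL35m, SE 0.05). These 4 stayed within 0.1 of no change, while genes of the same particle such as MRPL44 were more than 4-fold lower. With upper-quartile scaling, MRP20 (log2 0.09) and MRP35 (log2 0.17) were called higher.

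In the small subunit only RSM25 fell further than MRPL44, the largest fall of the large subunit. RSM25 (YIL093C, family mS23, chromosome IX, 187990 to 188784) had 10.7 and 9.32 CPM in the mutant, against 74.7 and 70.1 CPM in the wild type. This was the largest change of the 66, 7.18-fold lower (log2 -2.84, SE 0.06; edgeR quasi-likelihood adjusted p = 1.3e-17), and it stood at the 5.2 percentile of the changes of all genes tested. RSM27 (YGR215W, family mS33) had 15.6 and 16.5 CPM in the mutant, against 70.7 and 69.3 CPM in the wild type, 4.36-fold lower. Neither protein has a bacterial counterpart. MRPS16 (YPL013C, family bS16m) had 18.6 and 19.0 CPM in the mutant, against 74.1 and 74.0 CPM in the wild type. MRPS8 (family uS8m), whose bacterial counterpart binds the central domain of the small ribosomal RNA early in assembly, had 16.3 and 15.0 CPM in the mutant, against 53.2 and 49.9 CPM in the wild type. MRP21 (family bS21m) had 23.7 and 22.9 CPM in the mutant, against 63.6 and 60.1 CPM in the wild type. In all 5 the libraries of the strains did not overlap, as in 96.4% of all genes tested. The edgeR quasi-likelihood adjusted p was at most 9.0e-15.

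The other 5 falls of at least 2-fold in the small subunit were all of proteins shared with bacteria. They were RSM7, MRP17, RSM18, MRPS9 and MRPS12, from 2.36-fold to 2.06-fold lower. MRP17 and RSM18 belong to the families bS6 and bS18, which sit side by side on the platform of the bacterial subunit. MRP17 had 32.0 and 28.4 CPM in the mutant, against 71.2 and 68.9 CPM in the wild type. RSM18 had 38.2 and 40.1 CPM in the mutant, against 85.3 and 80.8 CPM in the wild type. MRPS12 had 83.4 and 88.4 CPM in the mutant, against 179 and 173.8 CPM in the wild type. In all 3 the wild-type libraries lay above both mutant libraries, in data where 96.4% of all genes tested do not overlap between strains.

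Of the small-subunit genes that rose, MRP10 moved furthest. MRP10 (YDL045W-A, family mS37, chromosome IV, 372248 to 372535), a protein with paired cysteines that is imported with the help of Mia40, had 101 and 95.7 CPM in the mutant, against 60.2 and 59.3 CPM in the wild type, 1.65-fold higher (edgeR quasi-likelihood adjusted p = 5.8e-12). MRPS18 (family uS11m) rose 1.15-fold, with 145 and 137 CPM in the mutant, against 123 CPM in both wild-type libraries. The other 3 rises were small and rested on single libraries. MRPS5 (family uS5m, log2 0.14) was no longer called without mutant replicate 2 (adjusted p = 0.073) or without wild-type replicate 1 (0.092) in the edgeR fit. RSM22 (log2 0.11) and MRP13 (family mS44, log2 0.09) were no longer called without mutant replicate 1 (edgeR adjusted p = 0.19 and 0.35) or without wild-type replicate 1 (0.12 for both). The 5 rises of the small subunit thus became 2 without wild-type replicate 1 and 3 without mutant replicate 1.

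RSM10 (family uS10m) and MRPS17 (family uS17m) were not called. RSM10 had 76.4 and 77.1 CPM in the mutant, against 78.9 and 79.1 CPM in the wild type. MRPS17 had 80.0 and 72.5 CPM in the mutant, against 82.2 and 78.5 CPM in the wild type, and was called lower without mutant replicate 1 (edgeR adjusted p = 0.021) or without wild-type replicate 2 (0.031). Its mutant libraries lay further apart than those of RSM10.

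**Figure D3:**
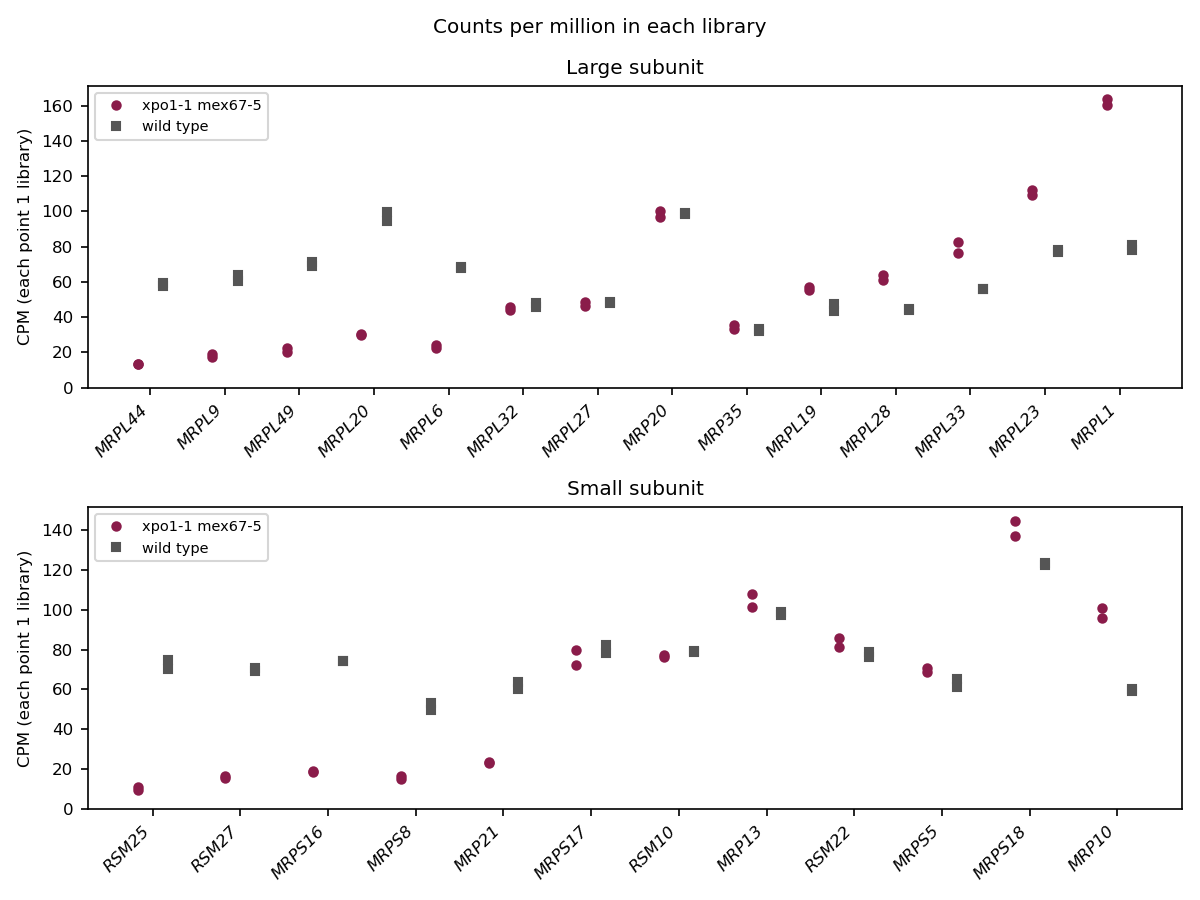
The y axis gives CPM from 0, each point being 1 library, for the 5 largest falls, the genes not called and the 5 largest rises of each subunit, in that order from left to right. Mutant points stand left of wild-type points; RSM25 lies at 10.7 and 9.32 CPM in the mutant, against 74.7 and 70.1 CPM in the wild type, and MRPL1 at 164 and 160.4 CPM, against 80.6 and 77.9 CPM.

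The proteins of the ribosome are present in equal number in each particle, apart from the stalk, but their messages were not at equal level in either strain. On the scale of CPM per kb of coding length, which leaves untranslated regions out, the median over the 66 genes was 76.5 and 74.1 in the mutant libraries, against 108 and 106 in the wild type. In the wild type the highest levels of the small subunit were those of MRPS12 (382 CPM per kb), whose family uS12m belongs to the decoding site, RSM19 (213) and RSM27 (210.2). In the large subunit they were those of MRPL39 (282 CPM per kb, family bL33m), MRPL33 (215) and MRPL44 (197). In the mutant, MRP10 (342 CPM per kb) stood first in the small subunit and MRPL33 (304) in the large subunit, while MRPS12 was at 186, MRPL39 at 170, RSM27 at 48.3 and MRPL44 at 45.2.

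Levels per length of these genes were spread more widely in the mutant. The same spread over other genes is not given here, so whether it is particular to the 66 cannot be told. The standard deviation of log2 CPM per kb over the 66 genes was 0.98 and 1.00 in the mutant libraries, against 0.74 in both wild-type libraries. In the large subunit it was 1.03 and 1.04 in the mutant, against 0.78 and 0.79 in the wild type, and in the small subunit 0.94 and 0.96, against 0.68 and 0.66. No value of one strain overlapped the other, and with 2 libraries each no exact permutation test can pass 0.05. The range reached 46.0-fold and 46.5-fold from lowest to highest gene in the mutant, against 30.3-fold and 33.5-fold in the wild type. Across the 66 genes, Pearson's r between log2 CPM per kb of the mutant and of the wild type was 0.65 (Spearman's rho 0.52), a description over genes measured in the same libraries. The log2 change itself followed coding length (r = 0.10, rho = 0.08) and wild-type level per kb (r = -0.13, rho = -0.14) only weakly.

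MRPL38 had the lowest level per kb in every library, followed in the mutant by RSM25 (13.5 and 11.7 CPM per kb) and in the wild type by MRPL51. MRPL38 (family uL14m) had 200 and 151 reads in the mutant, against 265 and 231 reads in the wild type, the lowest of the 66. MRPL51 (family mL43) had 489 and 345 reads in the mutant, against 579 and 522 reads in the wild type. MRPL51 shares 323 bases with YPR099C on the opposite strand, and the library kit does not mark strand. No source used here says how reads in shared stretches were assigned, and its level is uncertain. MRP4 shares 2 bases with YHL005C. Overlaps were looked for among RefSeq genes alone. A counted feature absent from that build may share bases with MRPL38 or other members, so the level of MRPL38 is uncertain too.

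**Figure D4:**
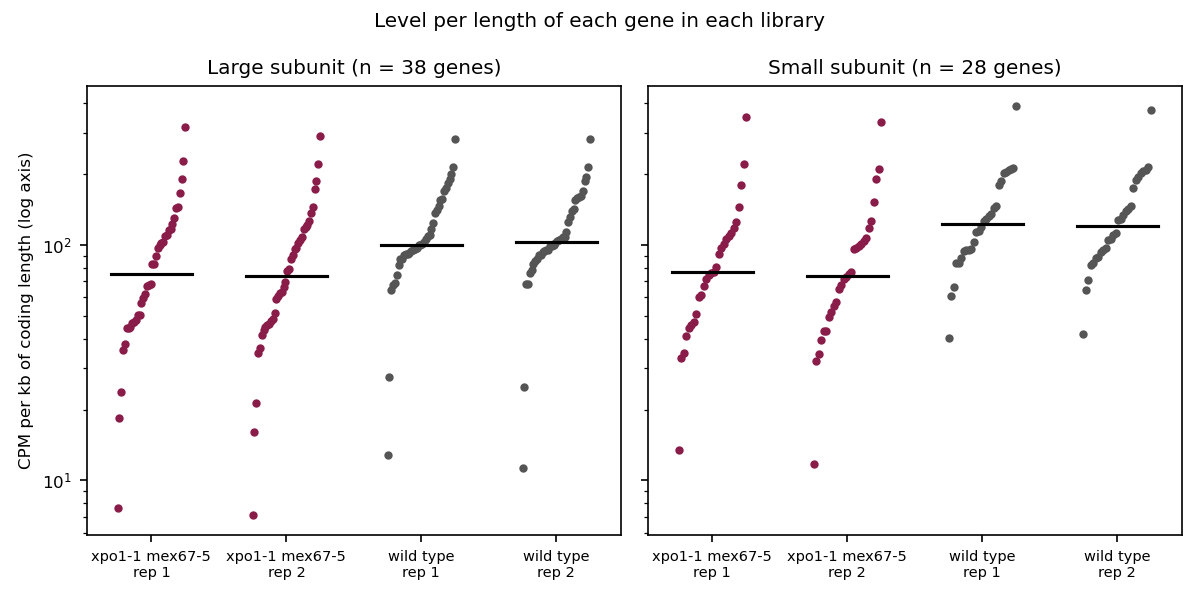
The log y axis gives CPM per kb of coding length for each gene (points, sorted from low to high within a library) in each of the 4 libraries, with the median as a black line, for the large and the small subunit. Medians of the small subunit are 76.5 and 74.1 CPM per kb in the mutant, against 123 and 119.7 in the wild type.

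Summed over genes, the small subunit lost slightly more of its share than the large. The 38 large-subunit genes together took 2019 and 1980 CPM in the mutant libraries, against 2620.2 and 2616 CPM in the wild type, and the 28 small-subunit genes 1763 and 1720.5 CPM in the mutant, against 2490.1 and 2480 CPM in the wild type. The ratio of the sums, large over small, was 1.15 in both mutant libraries, against 1.05 in both wild-type libraries. These values do not overlap, nor do those of 96.4% of all genes tested. Single genes weigh on such sums. MRPL1 had a mean of 162 CPM in the mutant, against 79.3 CPM in the wild type, and MRPS12 85.9 CPM, against 176.6 CPM. Both changes raise the ratio, while the rise of MRP10 in the small subunit lowers it. The ratio without these genes is not given here. All 66 genes took 0.378% and 0.370% of scaled reads in the mutant, against 0.511% and 0.510% in the wild type.

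Proteins shared with bacteria and proteins specific to mitochondria were both mostly low. Of 41 genes of u and b families, 30 fell (73.2%) and 6 rose (14.6%), with a median log2 change of -0.58. Of 24 genes of m families, 18 fell (75.0%) and 5 rose (20.8%), with a median of -0.42. Among all genes tested, 46.3% were lower and 46.8% higher. All 6 rises among the u and b families were of u families (27 genes, 18 of them, or 66.7%, lower). Among the 14 genes of b families 12 fell (85.7%) and 0 rose by the edgeR test. The other 2, MRPL32 and MRP35, had unadjusted edgeR p over 0.05 as well, and DESeq2 also called 0 higher. With upper-quartile scaling MRP35 was called higher. This split was made after the values were seen and was not tested.

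Genes for mitochondrial ribosomal proteins that the naming rule leaves out were mostly lower too. Of 13 such genes, 11 fell (84.6%, against 46.3% of all genes tested) and 1, YML6 (log2 0.36), rose (7.7%, against 46.8%). Their median log2 change was -0.67. RML2, the uL2 protein of the peptidyl transferase region, had 41.2 and 41.9 CPM in the mutant, against 127 and 129 CPM in the wild type. IMG2 had 18.8 and 19.7 CPM in the mutant, against 48.9 and 47.3 CPM in the wild type, and the small-subunit genes NAM9, a uS4 protein, and PET123 fell 2.15-fold and 1.92-fold. MRX14 (log2 -0.09) was not called. VAR1, the member encoded in mitochondria, had 2 and 1 reads in the mutant and 0 in both wild-type libraries, too few to test.

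Synthetases and translational activators of mitochondria were mostly higher in the mutant. Of 13 mitochondrial aminoacyl-tRNA synthetase genes, 10 rose (76.9%, against 46.8% of all genes tested) and 2 fell (15.4%, against 46.3%). Their median log2 change was 0.53. MST1, for threonine, had 139 and 129.8 CPM in the mutant, against 39.8 and 41.4 CPM in the wild type. Of 16 genes listed as translational activators, most of them specific to a single mitochondrial message, 13 rose (81.2%) and 3 fell (18.8%), with a median of 0.53. CBP6, which acts on the cytochrome b message, had 121 and 124 CPM in the mutant, against 24.8 and 26.9 CPM in the wild type, and PET111, which acts on that of a cytochrome oxidase subunit, rose 4.39-fold. Over the other scalings, the filter, DESeq2, the replicate block and left-out libraries, 10 or 11 synthetase genes and 12 or 13 activator genes were called higher, a check that was added after seeing the data. At least 2-fold higher were 4 synthetase genes (30.8%), near the 27.8% of all genes, and 6 activator genes (37.5%).

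Translation factors and assembly factors went in both directions. Of 9 translation factor genes 4 rose and 4 fell (44.4% each, near the 46.8% and 46.3% of all genes), with IFM1, the initiation factor that brings the initiator transfer RNA, at 300.6 and 290.4 CPM in the mutant, against 53.9 and 56.4 CPM in the wild type, and GUF1, a LepA-type GTPase, up 3.98-fold. TUF1, the elongation factor that delivers transfer RNA, fell (log2 -0.43). Of 9 genes for ribosome assembly and modification of ribosomal RNA, 5 rose (55.6%) and 4 fell (44.4%), also near the shares of all genes. RPM2, the protein subunit of mitochondrial RNase P, rose 4.81-fold and MRM1, a ribosomal RNA methyltransferase, 2.44-fold. Among 6 genes for insertion into the inner membrane 3 rose and 3 fell (50.0% each), again near those shares. OXA1, the insertase that binds the ribosome at its tunnel exit, had 39.2 and 43.0 CPM in the mutant, against 184.7 and 195.7 CPM in the wild type, and PNT1 rose 2.98-fold. The 3 falls in that list became 1 with upper-quartile scaling and 2 by DESeq2.

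The Puf3 motif did not separate these lists. It followed the stop codon in all 13 of the other mitochondrial ribosomal protein genes, all 13 synthetase genes, 12 of 16 activator genes, 7 of 9 translation factor genes and 6 of 9 assembly genes. The median log2 change of the genes with the motif was -0.52 in the 66 genes, -0.67 in the other ribosomal protein genes, 0.53 in the synthetases and 0.53 in the activators. Outside the 66, 894 tested protein-coding genes with the motif had a median of -0.08, against -0.09 in 4874 without it. PUF3 itself had 38.1 and 40.9 CPM in the mutant, against 52.6 and 53.8 CPM in the wild type, a log2 change of -0.43 (edgeR quasi-likelihood adjusted p = 1.1e-07).

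**Figure D5:**
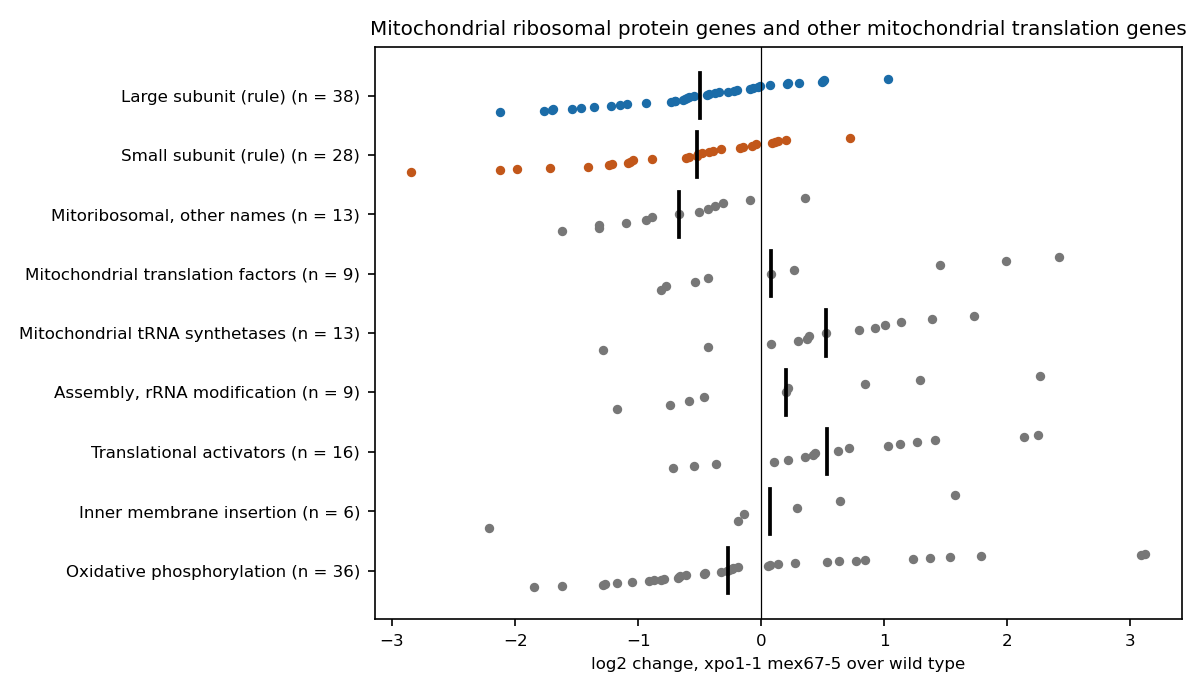
Each point is a gene at its log2 change, mutant over wild type, and black bars are medians. The genes of the mitochondrial ribosome (top 3 rows, medians -0.49, -0.52 and -0.67) lie mostly left of 0, and the synthetases and activators (medians 0.53 each) mostly right of it.

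Beside the cytosolic ribosome, the change was small. The 82 large-subunit and 56 small-subunit genes of the cytosolic ribosome had median log2 changes of -4.05 and -4.12. All of them fell, against 46.3% of all genes tested. Of 36 nuclear genes of oxidative phosphorylation, 22 fell (61.1%) and 12 rose (33.3%, against 46.8% of all genes), with a median of -0.27. The motif was present after the stop in 25.0% of the oxidative phosphorylation genes and in 11.0% and 5.4% of the cytosolic large-subunit and small-subunit genes.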

How the data were processed

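What the authors deposited is 1 table of read counts per gene and 1 per intron for every library, not normalized. Build R64 and the tools bcl2fastq 2.17, STAR 2.5, DESeq2 1.8.2 and featureCounts are listed, per the submitters' processing notes, with no role given. Gene IDs were matched to RefSeq R64 by systematic name (6048 of 7126), and coding lengths, neighbours and sequences come from that build. Replicates differed by more than counting error (chi-square per degree of freedom 7.15 in the mutant and 10.6 in the wild type).

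All genes were fitted together in edgeR 4.0.16 under R 4.3.3, after filterByExpr and TMM scaling, by robust quasi-likelihood F-tests, group alone, Benjamini-Hochberg over 6563 genes at 0.05. CPM use library sizes multiplied by the TMM factors. The steps were tested on simulated counts. Alternatives were 3 other scalings, no filter, DESeq2 1.42.0, a replicate block, a 2-fold threshold and each library left out. Members, lists and tests were chosen with earlier results of these data known. Named members were the 5 largest rises and falls per subunit among those called, those not called and the 3 highest per kb in the wild type per subunit; in other lists, the 2 with the smallest adjusted p. Others were named after their values were seen. MRP35 was assigned to the large subunit by its family name (bL35m). Figures were drawn with matplotlib 3.10.9.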

Additional observations from a re-analysis of the deposited data

How the results depend on the processing

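The counts of mitochondrial ribosomal protein genes, and of either subunit, that were called lower stayed within 1.5 times under every scaling, filter, tool and left-out library. With a 2-fold threshold, 1 gene was higher and 20 lower, 1 and 10 in the large subunit and 0 and 10 in the small subunit. Small-subunit genes called higher numbered 3 by DESeq2 and 2 to 5 over left-out libraries. Upper-quartile scaling moved the median of all genes by 0.10 on the log2 scale; the median change became -0.39 in the large and -0.42 in the small subunit, and the members' median minus that of all genes was -0.53 as before. Under it MRPL32 (0.0366), MRPL27 (0.0763), MRP20 (0.0929), MRPS17 (0.0269), RSM10 (0.0589) and MRPL8 (0.0112, called lower at -0.09 with TMM) turned positive, and so did MRP20 with library totals alone (0.00215). Over left-out libraries MRP20 ranged from -0.0333 to 0.0113, MRPL27 from -0.0622 to 0.00338, the large-subunit median from -0.54 to -0.47 and the large minus small difference from -0.0230 to 0.0757. The cause of these shifts was not tested. Calls of MRPL8, MRP2, MRPL4, MRP49, RSM24, MRPS5, RSM22 and MRP13 were lost under at least 1 alternative. Same-numbered libraries did not deviate together (correlation -0.0264), and the fit with a replicate block gave 12 higher and 48 lower, as without it. MRPL38 and MRPL51 rest on the fewest reads.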

Other observations

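The RefSeq genes next to the members on the chromosome also differed between strains. For the 5 largest falls of each subunit, a set chosen after the values were seen, the nearest upstream gene was lower in the mutant in 10 of 10 cases, with a median log2 change of -1.98, against 46.3% lower among all genes tested. For the same falls the nearest downstream gene was lower in 5 of 9 cases, higher in 2 and not called in 2, with a median of -0.21. Over all members that fell, 27 of 45 upstream neighbours were lower and 16 higher, with a median of -0.37. How often the upstream neighbours of other genes with falls as large were lower is not given here. Among the upstream neighbours of the members' largest falls was RPS0A (log2 -3.78), a cytosolic ribosomal protein gene upstream of RSM27. Others were RRP12 (-1.72), a ribosome export factor upstream of MRPS16, and IMP3 (-2.24), of the small-subunit processome, upstream of MRPL6. PHS1 (-2.65) upstream of MRPL49, MAP2 (-2.57) upstream of MRP21 and ORA1 (-2.55) upstream of MRPL44 fell further than RRP12 and IMP3. The smallest fall was that of TOS2 (-0.21) upstream of MRPL9. For the 5 largest rises of each subunit, 5 upstream neighbours were higher and 3 lower, including RPL11B (-3.88) upstream of MRP13, which rose slightly itself. Over the 63 members whose upstream neighbour was tested, the correlation of the log2 changes was r = 0.30 (rho 0.24), and over 5403 protein-coding genes it was r = 0.28 (rho 0.25). Split by strand, r was 0.47 for 27 members and 0.22 for all genes with the neighbour on the same strand, and 0.13 for 36 members and 0.32 for all genes with it on the opposite strand, differences that were not tested. MRPS12 and RSM19 are the members that neighbour each other, on the same strand and 229 bases apart, with log2 changes of -1.04 and -0.52. RSM25 lies upstream of LYS12 (log2 -3.97) on the same strand, with 357 bases between them.

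The letters AATTTT occurred on either strand within 300 bases before the start codon of 27 of the 66 genes (40.9%), against 54.1% of 6002 protein-coding genes. The median log2 change was -0.62 in the 27 and -0.39 in the other 39, a description without a test.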
